A study of Mus musculus with 6 samples.

Results

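The cytosolic ribosomal protein genes were taken as the protein-coding rows whose symbol is that of a protein of the large or the small cytosolic subunit, Rplp0, Rplp1, Rplp2 and Rpsa included, and they number 82 of the 25805 genes in the deposited files. The rule uses names and biotype alone, and it was set with earlier results of these data known. Pseudogenes and ribosomal protein kinases were left out by name and biotype. By role the 82 genes are 43 of the large subunit, 31 of the small subunit, 3 of the stalk and 5 paralogs, and they lie on 19 chromosomes. All 82 passed the filter on low values, and 76 of them had a mean of at least 1000 normalized counts, so the filter removed no member.

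The libraries hold RNA of mouse kidney after ischaemia-reperfusion injury (IRI), a model of acute kidney injury in which the blood supply is stopped and then restored. There were 3 libraries of wild-type mice with IRI (WT 1 to 3) and 3 of mice labelled as Cxcr2 knockout with IRI (KO 1 to 3). Cxcr2 is a chemokine receptor of neutrophils and other cells, and the comparison asks how kidney expression after injury differs with its genotype. All 6 libraries share the injury, and there is no uninjured kidney among them. Strain, age, time after reperfusion, the allele that makes the knockout and whether each library is 1 animal could not be read from the labels. The p-values therefore refer to the spread among libraries, which may be technical. The files gave 15518083 to 20356601 reads per library.

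A ribosome is built of ribosomal RNA and a fixed set of ribosomal proteins, so cells make these proteins in matched amounts. Their mRNAs are short and abundant in every cell. They begin at a cytosine followed by a run of pyrimidines, the terminal oligopyrimidine (TOP) tract, through which the kinase complex mTORC1 and the protein Larp1 control their translation and stability. Mammalian genomes also carry many processed pseudogenes of these mRNAs.

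Start sites are shown for 6 members because the tract is the feature that these mRNAs are known to share. Each line gives 10 bases before and 20 bases from the RefSeq start (build GRCm38.p6), and the capitals mark the unbroken pyrimidine run that begins at the start base. Rps27 is at chr3:90213629-90213658 on the minus strand, Rps21 at chr2:180257369-180257398 on the plus strand and Rpl38 at chr11:114668570-114668599 on the plus strand. Rpl35 is at chr2:39005112-39005141 on the minus strand, Rps6 at chr4:86857348-86857377 on the minus strand and Rpl15 at chr14:18270967-18270996 on the minus strand.
Rps27: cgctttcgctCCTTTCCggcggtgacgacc
Rps21: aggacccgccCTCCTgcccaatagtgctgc
Rpl38: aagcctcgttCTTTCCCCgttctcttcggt
Rpl35: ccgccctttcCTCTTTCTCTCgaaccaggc
Rps6: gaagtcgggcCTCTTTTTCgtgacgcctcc
Rpl15: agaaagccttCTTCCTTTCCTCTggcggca
Of the 82 members, 62 had a RefSeq promoter entry, which spans 250 bases before to 50 after the start. A cytosine at the start base followed by at least 4 pyrimidines was found in 13 of the 62 (20.97%), against 3.008% of all 27025 symbols with an entry. The letters CCGGAAG, searched on both strands, were in 40.32% of the members' entries and in 9.928% of all entries, and GCCATNTT, also on both strands, in 20.97% and 6.96%. TATAAA on the gene's strand was in 9.677% of the members' entries and in 9.772% of all. A match is a match of letters in this window and depends on where RefSeq places the start.

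The messages themselves are short, and coding length turned out to order the differences described below. The shortest coding sequence among the members is that of Rpl41, a small basic protein of the large subunit, with 78 bases including the stop codon.
Rpl41: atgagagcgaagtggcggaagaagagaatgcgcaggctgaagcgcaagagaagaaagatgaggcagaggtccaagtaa
Many members share most of their sequence with other listed genes. At an identity of at least 98% over at least 80% of the coding sequence, 68 members had at least 1 listed copy in GENCODE M21 and 14 had none. Rps27, a zinc finger protein of the small subunit, is an extreme case: its coding sequence of 255 bases, printed here in lower case throughout because no base differs, is also that of the protein-coding retrogene Rps27rt.
Rps27: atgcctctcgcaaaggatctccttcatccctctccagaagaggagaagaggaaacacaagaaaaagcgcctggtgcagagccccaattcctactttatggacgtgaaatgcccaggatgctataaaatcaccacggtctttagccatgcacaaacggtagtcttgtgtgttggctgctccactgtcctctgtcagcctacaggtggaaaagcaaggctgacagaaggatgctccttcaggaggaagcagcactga
Rplp0, the base of the stalk, differs from its processed pseudogene Gm8730 at 12 of 954 bases. The stretch from base 383 to base 502 of the coding sequence is shown for both because reads are told apart only where they cover such positions, and the capitals mark the 4 that differ.
Rplp0: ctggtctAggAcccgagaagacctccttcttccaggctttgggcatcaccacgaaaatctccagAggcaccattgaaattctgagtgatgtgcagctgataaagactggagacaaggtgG
Gm8730: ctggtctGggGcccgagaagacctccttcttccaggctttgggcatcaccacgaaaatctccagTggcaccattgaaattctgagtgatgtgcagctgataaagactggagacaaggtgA

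Cxcr2, the labelled target, was no lower in the labelled knockout, so the counts do not check the genotype. It stood at 15.9, 88.8 and 56.9 normalized counts in WT 1 to 3 and at 98.02, 36.8 and 56.6 in KO 1 to 3, a log2 fold change of 0.43 (SE 0.64, adjusted p = 0.841 with limma). Each direction below is that of the libraries labelled knockout. Values are normalized counts, that is reads divided by 1 size factor per library, and fold changes are differences of log2(normalized count + 1).

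The members made up a smaller part of the reads in the libraries labelled knockout. They took 3.93%, 3.92% and 3.25% of the reads of WT 1 to 3 and 1.94%, 2.96% and 2.85% of those of KO 1 to 3. The wild-type mean was 3.70% ± 0.389 and the labelled-knockout mean 2.58% ± 0.560 (SD, n = 3), and no library of one group reached into the other. KO 1 was the lowest library and WT 3 the lowest of the wild type. Summed over the members, normalized counts were 630018 ± 49670 in the wild type and 467072 ± 80942 in the labelled knockout (SD, n = 3), a ratio of 0.741. In bulk tissue, fewer cells of a type and less RNA per cell cannot be told apart.

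The lower level was spread over nearly the whole family. The mean was lower in the libraries labelled knockout for 80 of the 82 members, where 50.1% of all genes tested, and 39.1% of those with a mean of at least 1000, were lower. The exceptions were Rpl24 and Rpl36al. The members' median log2 fold change was -0.46, with a range from -1.55 to 1.10, and the median over all 21721 genes tested was -0.00. In 55 members every labelled-knockout library was below every wild-type library, against 9.43% of all genes and 8.35% of those with a mean of at least 1000, and in 2 members every one was above, against 8.27%.

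The tests across all genes differed in their calls of single members. With limma, 0 of 82 had an adjusted p under 0.05, where 0.0046% of all genes were called. At an unadjusted p under 0.05, 42 members were lower, against 6.14% of all genes and 5.77% of those with a mean of at least 1000, and 1 was higher, against 3.94%. DESeq2 on the recovered reads called 6 members, all lower, against 1.30% of its genes: Rps27, Rps28, Rps21, Rps29, Rpl38 and Rpl41. The quasi-likelihood test of edgeR called 0 members, where 0.00628% of its genes were called. It had 36 members lower at an unadjusted p under 0.05, and the share over all its genes at that p is not given here. Leaving out 1 library at a time moved the limma count of 42 to between 13 and 48, where 2.81% to 7.91% of all genes were lower at that p.

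**Figure D1:**
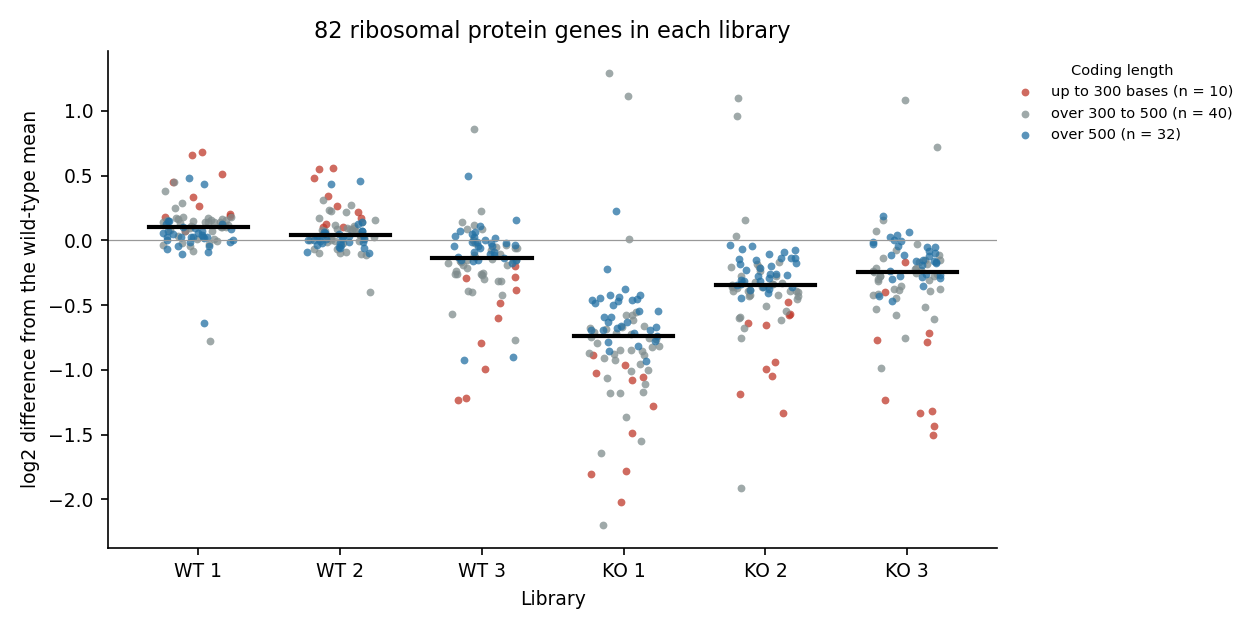
Each point is 1 of the 82 members, plotted for each library (x axis) as its log2 difference from the mean of the 3 wild-type libraries (y axis); colours give the coding length and black bars the median of all members. The medians run from -0.74 in KO 1 to 0.10 in WT 1, and the shortest members lie towards the bottom in WT 3 and in the 3 libraries labelled knockout.

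The libraries were not equal within their groups. Relative to the wild-type mean, the members' median log2 difference was 0.10 in WT 1, 0.04 in WT 2 and -0.14 in WT 3, and -0.74, -0.34 and -0.24 in KO 1, KO 2 and KO 3. KO 1 was the lowest of the 6 libraries for 75 members, and WT 3 was the lowest wild-type library for 62. KO 3, the highest of its group in this median, was still below WT 3 for 65 members and below both WT 1 and WT 2 for 69. Without KO 1, the members' median was -0.29 and 77 of them were lower. Without both KO 1 and WT 3, a setting chosen after seeing the data, the median was -0.34, 74 members were lower and Rps28 passed limma's adjusted threshold, as did 0.0139% of all genes.

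Marker lists of cell types also varied within the groups, and in some of them KO 1 stood apart. The 12 fat cell markers summed to 82864 normalized counts in KO 1 and to 4610 to 8981 in the other 5 libraries. The 13 neutrophil markers tested summed to 5080 in KO 1 and 458 to 1662 elsewhere, and the 8 erythrocyte markers to 14761 and 1975 to 4046. Of the markers tested, none was at 0 in all 6 libraries. Markers of the thick limb, distal tubule and collecting duct summed to 51435 to 92962 in the wild type, to 106104 in KO 1, 57352 in KO 2 and 25285 in KO 3, where KO 3 was the lowest. Macrophage and monocyte markers (5347 to 9410 and 4067 to 8721) and T, NK and B cell markers (44.4 to 111 and 74.1 to 137) overlapped between the groups. Proximal tubule markers, which fit the labelled tissue, summed to 220270 to 291504 in the wild type and 234131 to 257747 in the labelled knockout, with 12 of 14 higher in mean. Proliferation genes were lower in mean for 14 of 14, with sums of 6161 to 6993 in the wild type and 1481 to 4658 in the labelled knockout. Endothelial and fibroblast markers were lower for 11 of 12, with sums of 19756 to 39392 and 6866 to 16522. None of these markers passed limma's adjusted threshold, DESeq2 called 5 of 14 proliferation genes and 4 of 12 endothelial and fibroblast markers lower, against 1.30% of its genes, and the part of these cells in the members' difference was not tested.

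The size of the difference followed coding length: members with the shortest coding sequences were the lowest in the libraries labelled knockout. Among the 80 members with a mean of at least 50 normalized counts, the 10 with a coding sequence of up to 300 bases had a median log2 fold change of -0.99, the 16 over 300 and up to 400 bases one of -0.52 and the 23 over 400 and up to 500 bases one of -0.50. It was -0.31 for the 16 members over 500 and up to 700 bases and -0.34 for the 13 over 700 and up to 1000. Over these 80 members, Spearman's rho between log2 fold change and coding length was 0.70. Among the 13 such members with no near-identical copy, rho was 0.84. These correlations are across genes of the same 6 libraries and are given as descriptions.

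Other protein-coding genes had the same order with smaller values. Their median log2 fold change was -0.36 for the 242 with up to 300 bases, -0.13 for the 1092 over 500 and up to 700 bases and 0.13 for the 3598 over 2000 bases. Spearman's rho over 12069 such genes was 0.26. After a smooth trend of log2 value on coding length was removed from each library, a setting chosen after seeing the data, the members' median log2 fold change was -0.27 and 78 were lower. At an unadjusted p under 0.05, 20 members were then lower, against 5.83% of all genes, and limma's adjusted threshold called 0 members.

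**Figure D2:**
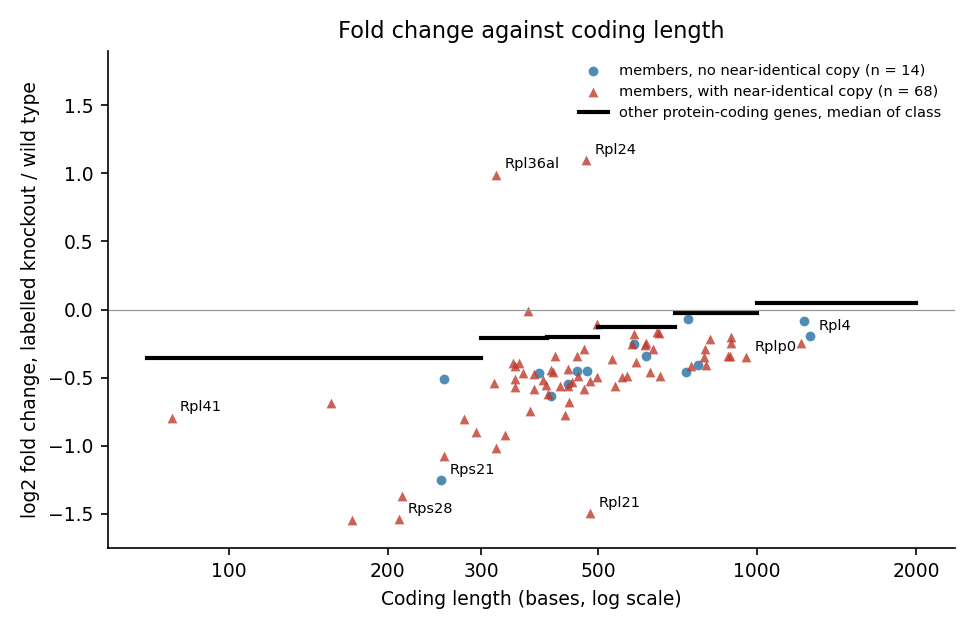
Log2 fold change (y axis) of the 82 members against coding length (x axis, log scale), with circles for the 14 members that have no near-identical copy and triangles for the 68 that have one; black lines are the medians of other protein-coding genes in classes of coding length. Members lie below the line of their class for the most part, and the shortest lie lowest.

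The shortest members also separated the wild-type libraries. In the class of up to 300 bases, the median log2 difference from the wild-type mean was 0.30 in WT 1, 0.24 in WT 2 and -0.54 in WT 3, against -1.18, -0.80 and -1.01 in KO 1, KO 2 and KO 3. WT 3 was below WT 1 and WT 2 in all 10 of them, and in 8 it was nearer to the mean of the labelled knockout than to that of WT 1 and WT 2, on the log2 scale. Of the 72 longer members, 26 had WT 3 nearer to the labelled knockout. In other protein-coding genes of up to 300 bases the medians were 0.12, 0.05 and -0.16 in the wild type and -0.48, -0.28 and -0.31 in the labelled knockout. RNA quality values and library kits were not used here, and the part of library preparation in this order was not tested.

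**Figure D3:**
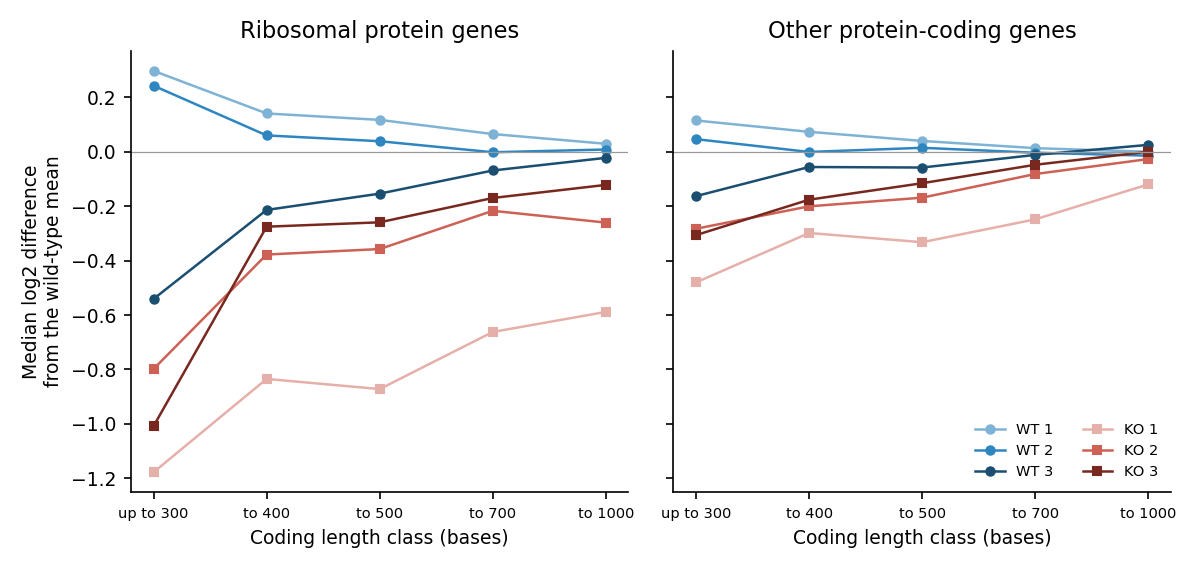
Median log2 difference from the wild-type mean (y axis) by class of coding length (x axis) for the members (left) and for other protein-coding genes (right), 1 line per library, circles for wild type and squares for labelled knockout. The lines fan out towards short coding sequences, with WT 3 at -0.54 and the labelled-knockout libraries from -1.18 to -0.80 in the shortest class of members.

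The 6 members that DESeq2 called were all among these 10. Rps28, a small-subunit protein, stood at 4191, 3893 and 1135 normalized counts in WT 1 to 3 and at 770, 1049 and 934 in KO 1 to 3, a log2 fold change of -1.54 (SE 0.49, adjusted p = 0.423 with limma). WT 3 was close to KO 2, and without WT 3 the log2 fold change was -2.15. Rps29, the next such protein, had 6423, 5834 and 1695 against 982, 1752 and 1479, a log2 fold change of -1.55 (SE 0.52, adjusted p = 0.431 with limma), and here WT 3 was below KO 2. Rpl38, a large-subunit protein known for its role in the translation of Hox mRNAs, had 5405, 5264 and 1894 against 1079, 1896 and 1517, a log2 fold change of -1.37 (SE 0.43, adjusted p = 0.409 with limma), with WT 3 and KO 2 at almost the same count. In all 3, WT 1 and WT 2 stood alone above the other 4 libraries.

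Rps21, Rps27 and Rpl41 kept the groups apart, as Rps28 did by a small margin. Rps21 (chromosome 2, 180257377 to 180258445), a small-subunit protein gene with no near-identical copy, stood at 5170, 4821 and 2185 normalized counts against 1356, 1839 and 1616. The log2 fold change was -1.25 (SE 0.32, adjusted p = 0.381 with limma, DESeq2 adjusted p = 0.0112). Rps27 (chromosome 3, 90212522 to 90213651) stood at 4303, 4175 and 2563 against 1836, 1868 and 1426, a log2 fold change of -1.08 (SE 0.23, adjusted p = 0.369 with limma, DESeq2 adjusted p = 0.00828). It had the smallest p of the members in limma. Rpl41 (chromosome 10, 128548114 to 128549305) stood at 18109, 17101 and 13053 against 7828, 10738 and 9228, a log2 fold change of -0.79 (SE 0.20, adjusted p = 0.377 with limma, DESeq2 adjusted p = 0.0368). In Rps21, Rps27 and Rpl41, WT 3 was the lowest wild-type library, and in Rps21 it lay nearer to the labelled knockout than to WT 1 and WT 2.

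Further large-subunit members had groups that did not overlap. The large-subunit members Rpl37a and Rpl37 had log2 fold changes of -0.80 (SE 0.21) and -0.90 (SE 0.28), and Rpl36a had -1.02 (SE 0.30). Rpl35, which lies near the exit of the peptide tunnel, stood at 5083, 5017 and 3850 against 2043, 3370 and 3027 (log2 fold change -0.75, SE 0.22). Rpl39, a small protein of that tunnel, stood at 4097, 4256 and 3410 against 1851, 2623 and 2954 (log2 fold change -0.68, SE 0.21). Rpl31, at the tunnel exit too, had a log2 fold change of -0.58 (SE 0.18). The limma adjusted p of these 6 lay between 0.381 and 0.394.

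The longer members with no copy gave smaller differences with a narrow wild-type range. Rps14, a small-subunit protein chosen as an example after its values were seen, stood at 9680, 9623 and 9442 normalized counts against 6255, 7496 and 7345, a log2 fold change of -0.45 (SE 0.16, adjusted p = 0.429 with limma). Rpl4, with the longest coding sequence of the family, stood at 16441, 16794 and 15952 against 12099, 15377 and 15836, a log2 fold change of -0.19 (SE 0.17, adjusted p = 0.726 with limma). Its groups were apart by a margin that is small beside the spread of the labelled knockout. The 13 members with the start-site run had a median log2 fold change of -0.49 and the 49 whose entry lacks it one of -0.44. Their median coding lengths were 393 and 456 bases. The run depends on where RefSeq places the start, so members whose entry lacks it may still carry the tract. This split therefore cannot show whether the tract orders the differences.

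The stalk proteins recruit the factors that drive elongation. Rplp0, the protein that anchors the stalk, stood at 24441, 24754 and 24630 normalized counts in WT 1 to 3 and at 16340, 19389 and 22620 in KO 1 to 3. Its wild-type values lay within a narrow band that no labelled-knockout library reached, and the labelled-knockout values were spread out below it. The log2 fold change was -0.35 (SE 0.18, adjusted p = 0.549 with limma). Summed with its copy Gm8730, Rplp0 had 24537, 24851 and 24740 against 17504, 20895 and 24300. The summed log2 difference was -0.25, and KO 3 then lay close below the wild type. Rplp0 held 99.6% of that sum in the wild type and 93.1% in the labelled knockout. The groups of the sum did not overlap, and the part of read assignment in the narrower gap was not tested. Rplp1, one of the acidic proteins bound to Rplp0, stood at 18712, 17730 and 17102 against 11084, 14784 and 15250, a log2 fold change of -0.39 (SE 0.18, adjusted p = 0.515 with limma). Its partner Rplp2 had 5553, 5852 and 5279 against 3519, 4316 and 4800, a log2 fold change of -0.41 (SE 0.17, adjusted p = 0.471 with limma). In all 3 stalk genes the groups did not overlap and KO 1 was the lowest library.

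Among the 31 small-subunit members every mean was lower (median log2 fold change -0.47), and in 24 the groups did not overlap, against 9.43% of all genes. Rps6, the protein phosphorylated by S6 kinase downstream of mTORC1, stood at 10753, 10639 and 9097 normalized counts in the wild type and at 6164, 8462 and 8427 in the labelled knockout. This is a log2 fold change of -0.41 (SE 0.19, adjusted p = 0.501 with limma) with no overlap. Rpsa, also known as a laminin receptor, stood at 21584, 20417 and 21455 against 12681, 18457 and 19758, a log2 fold change of -0.34 (SE 0.20, adjusted p = 0.593 with limma). The X-linked Rps4x stood at 11241, 10920 and 10919 against 7332, 8867 and 9928, a log2 fold change of -0.35 (SE 0.17, adjusted p = 0.531 with limma). Both kept their groups apart by a small margin at KO 3. Rps27a, made as a fusion with ubiquitin, was irregular: 6432, 4334 and 6684 in the wild type and 1832, 5864 and 5140 in the labelled knockout, so the groups overlapped and KO 1 stood far below the rest.

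**Figure D4:**
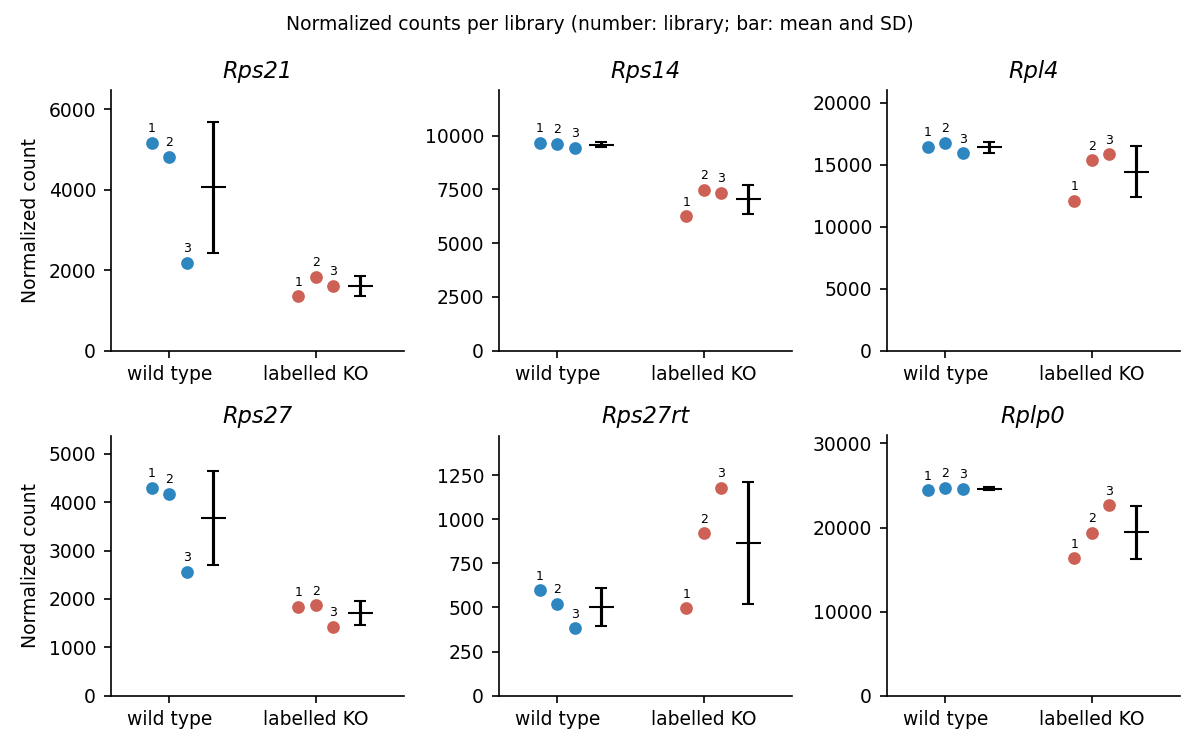
Normalized counts (y axis, from 0) of 5 members and of the retrogene Rps27rt in the 3 wild-type libraries and the 3 libraries labelled knockout; numbers are the libraries and the bars beside them the mean and SD of the 3. WT 3 lies near the labelled knockout in Rps21 and between the groups in Rps27, lies with WT 1 and WT 2 in Rps14, Rpl4 and Rplp0, and the groups of Rps27rt overlap.

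The 43 large-subunit members had a median log2 fold change of -0.46, with 42 lower in mean and no overlap in 28 of those, against 9.43% of all genes. Rpl11 and Rpl5 bind 5S ribosomal RNA and, outside the ribosome, the p53 regulator Mdm2. Rpl11 stood at 9644, 9470 and 7962 normalized counts against 4726, 6803 and 7028, a log2 fold change of -0.56 (SE 0.20, adjusted p = 0.431 with limma) with no overlap. Rpl5 stood at 10200, 10173 and 9121 against 7156, 8924 and 9731, a log2 fold change of -0.20 (SE 0.18, adjusted p = 0.716 with limma), and its groups overlapped. Rpl10, which joins the large subunit late in its assembly, had 15120, 13633 and 12230 against 10471, 12068 and 14244, a log2 fold change of -0.16 (SE 0.18, adjusted p = 0.782 with limma). The difference between these 3 members was not tested.

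Rpl21 had the largest difference of the large subunit, and its size varied with the library left out and with summing over its copies. Over the fits without 1 library its log2 fold change ran from -2.05 to -1.14. It stood at 2083, 1965 and 2347 normalized counts in the wild type and at 462, 565 and 1636 in the labelled knockout, a log2 fold change of -1.50 (SE 0.44, adjusted p = 0.391 with limma). KO 3 lay near the wild type. Without KO 3 the log2 fold change was -2.05 (adjusted p = 0.0212 with limma, where 0.0138% of all genes were called). Summed with its 14 listed copies, Rpl21 had 7738, 6947 and 6982 against 4710, 5343 and 5948, and the log2 difference was -0.44.

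Rpl24 and Rpl36al were the exceptions in direction, and both sat at the bottom of the family. Rpl24, a large-subunit protein, had 20.9, 34.2 and 67.1 normalized counts in the wild type and 80.2, 79.4 and 78.2 in the labelled knockout, a log2 fold change of 1.10 (SE 0.44, adjusted p = 0.467 with limma). The 3 labelled-knockout values lay close together and WT 3 lay nearer to them than WT 1. Rpl36al, a paralog of Rpl36a, had 10.9, 8.33 and 7.96 against 23.4, 18.4 and 15.4, a log2 fold change of 0.99 (SE 0.45, adjusted p = 0.509 with limma). Summed with their listed copies, Rpl24 differed by 0.38 and Rpl36al by 0.34 on the log2 scale, and the groups overlapped in both. These sums leave out copies that the deposited files do not list. Gm28037 is identical to Rpl24 over 83.12% of its coding sequence, and Gm49383 to Rpl36al over 94.39%. The part of these copies in the low counts was not tested.

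The 5 paralogs had a median log2 fold change of -0.07. Rpl22l1 stood at 690, 642 and 729 normalized counts against 691, 594 and 766, a log2 fold change of -0.01 (SE 0.16, adjusted p = 0.983 with limma), and its main member Rpl22 at 4989, 4740 and 3735 against 2642, 3396 and 3753. The paralog's count was 15.6% ± 3.37 of that of Rpl22 in the wild type and 21.3% ± 4.39 in the labelled knockout (SD, n = 3). Rps27l, known as a target of p53, came to 90.4% ± 11.2 of Rps27 in the wild type and to 140.0% ± 55.0 in the labelled knockout. Its own counts were 3659, 3458 and 2646 against 1742, 2312 and 2871. Rpl7l1 stood at 1654, 1825 and 1853 against 1527, 1732 and 1831, with overlap, while Rpl7 stood at 12385, 12015 and 11472 against 8928, 10204 and 11894. Rpl3l, the paralog known from heart and skeletal muscle, had 23.4 to 52.3 counts in the wild type and 29.0 to 43.4 in the labelled knockout, where Rpl3 had 11169 to 12858 and 8752 to 11893. The log2 fold changes of Rpl3l and Rpl7l1 were -0.09 (SE 0.42) and -0.07 (SE 0.15).

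Levels of different genes were compared only per kilobase of the gene length in the files. On that scale Rplp1 was the highest member, at 35767 normalized counts per kilobase in the wild type and 27466 in the labelled knockout. Rps15 followed at 14957 and 10254, and Rplp0 at 14833 and 11724. The wild-type ranges of Rps15 (13435 to 16746) and Rplp0 (14732 to 14921) overlapped, so their order is within their spread. The lowest were Rpl36al at 6.69 and 14.1, Rpl3l at 23.6 and 21.4 and Rpl24 at 39.6 and 77.0. Rps10, at 49.1 and 46.6, was also far below the rest of the small subunit. Gene length in the files covers all exons, and with the length of the principal mRNA instead Rpl41 took the second place at 29573 in the wild type.

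Summing members with their listed copies moved some single members more than the median of the family. Such sums leave out copies that are not listed and any reads that were not counted. How reads that match several genes were counted is not given in the sources used here, so the counts of the 68 members with copies are uncertain. The 14 members with no copy were lower in 14 of 14 (median log2 fold change -0.45), with no overlap in 9. The 68 with a copy had a median of -0.47, with no overlap and lower in 46. Over all genes, 9.43% were lower with no overlap. When each member was summed with its listed copies, the median log2 difference was -0.45, 80 were lower and 56 were lower with no overlap. A share over all genes for such sums is not given here. The 229 listed copies that are not members summed to 51207 ± 2848 normalized counts in the wild type and 41369 ± 6609 in the labelled knockout (SD, n = 3), a ratio of 0.808. Summing moved 6 members by more than 0.2 on the log2 scale: Rpl21, Rpl24, Rpl36al, Rps27, Rps12 and Rps28.

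The split between a member and its copy differed between libraries in some pairs. Rps27rt, whose coding sequence is printed above with that of Rps27, had 597, 520 and 383 normalized counts in WT 1 to 3 and 496, 921 and 1179 in KO 1 to 3, a log2 fold change of 0.72 (adjusted p = 0.498 with limma). Rps27 held 88.0% of the summed count of the pair and a further copy in the wild type and 66.2% in the labelled knockout, and the summed log2 difference was -0.66, against -1.08 for Rps27 alone. Rps10 held 4.76% of the summed count with its listed copies in the wild type and 4.87% in the labelled knockout. Which gene those reads came from was not tested. Rps10 stood at 110, 121 and 109 normalized counts against 76.9, 127 and 119. Its processed pseudogene Rps10-ps2, 98.99% identical, stood at 2079, 1978 and 2386 against 1715, 2042 and 2179.

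Several copies set WT 1 and WT 2 apart from the other 4 libraries, as the shortest members did. Gm10335, a copy of Rpl23a, had 486, 450 and 109 normalized counts in the wild type and 51.2, 90.0 and 71.0 in the labelled knockout. Gm9794, a copy of Rpl23, had 3359, 3257 and 1542 against 978, 1482 and 1473. Gm6472, a copy of Rps7, had 1928, 1881 and 804 against 521, 739 and 779, and Rpl14-ps1 had 2301, 2425 and 1044 against 647, 943 and 841. Gm17828, a copy of Rpl7a, went the other way, with 17.6, 24.98 and 175 against 139, 157 and 143. These 5 copies were named after their values were seen. The one copy that limma called was Gm8730, the copy of Rplp0 shown above, at 96.1, 97.1 and 110 against 1164, 1506 and 1681 normalized counts.

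The 157 listed pseudogenes of ribosomal protein genes gave a less uniform picture. Of the 125 that passed the filter, 90 were lower and 35 higher in mean (median log2 fold change -0.27), and 12 (9.6%, against 6.14% of all genes) were lower at an unadjusted p under 0.05, with 3 higher. With limma 0 of this list were called, and with DESeq2 3, which is near the share over all its genes. The list was taken by name and description and does not hold Gm8730, the processed pseudogene of Rplp0 that limma called. AC123956.1 had 1.67, 0.925 and 1.14 normalized counts against 20.05, 11.6 and 26.8, a log2 fold change of 3.13 (SE 0.57, adjusted p = 0.317 with limma). Rpl31-ps8 had 639, 673 and 650 against 362, 490 and 417, a log2 fold change of -0.64 (SE 0.17, adjusted p = 0.383 with limma). Rpl37rt had a log2 fold change of -1.11 (SE 0.31, adjusted p = 0.391 with limma).

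The related genes of translation did not all follow the members, although the lists are small and no gene in them passed limma's adjusted threshold. With the coding-length trend removed, the members' median log2 fold change was -0.27 and that of the elongation factors and other TOP mRNAs -0.28. The trend could be removed only from genes with a coding length. Non-coding genes of that list, such as host genes of small nucleolar RNAs, kept their values, so these medians are not like for like. The median was -0.005 for the mitochondrial ribosomal proteins and 0.01 for polymerase I and assembly. It was 0.12 for the mTORC1 and TOP regulators, 0.05 for the initiation factors and 0.06 for the 5S and quality control list. Fau, which encodes Rps30 as a fusion, stood at 8253, 7651 and 6587 normalized counts in the wild type against 5122, 5876 and 5149, with no overlap. The 23 elongation factors and other TOP mRNAs, the list that holds Fau, had a median log2 fold change of -0.35, with 19 lower and 4 lower at an unadjusted p under 0.05 (17.4%, against 6.14% of all genes). Snhg6, a host gene of small nucleolar RNAs, had a log2 fold change of -0.82 (SE 0.24) and Snhg8 one of -1.30 (SE 0.51). Both of the following genes of the list had higher means and were named after their values were seen. Eef2, the translocation factor, had a log2 fold change of 0.32 (SE 0.19) and Eef1a1, which delivers aminoacyl-tRNA, one of 0.11 (SE 0.18).

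The 77 mitochondrial ribosomal protein genes, the parts of the other ribosome of the cell, had a median log2 fold change of -0.16, with 56 lower and 8 lower at an unadjusted p under 0.05 (10.4%, against 6.14% of all genes). Mrpl14 had 1136, 1206 and 1126 normalized counts against 442, 790 and 792, a log2 fold change of -0.82 (SE 0.24, adjusted p = 0.391 with limma). Mrps21 and Mrpl20 followed with -0.59 (SE 0.18) and -0.61 (SE 0.19), both with no overlap. The list took 0.443% ± 0.0228 of the reads in the wild type and 0.372% ± 0.0581 in the labelled knockout (SD, n = 3).

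Genes that make or regulate ribosomes were close to the median of all genes or above it. The 66 genes of polymerase I and ribosome assembly had a median log2 fold change of 0.06, with 25 lower and 41 higher. Nop10, a short protein of the box H/ACA particles, had a log2 fold change of -0.56 (SE 0.19), and the large pre-rRNA factor Heatr1 and the polymerase I subunit Polr1b had 0.44 (SE 0.15) and 0.40 (SE 0.15). The 29 regulators of mTORC1 and TOP mRNAs had a median of 0.12, with 24 higher. Larp1, which binds the TOP tract, stood at 2166, 2342 and 2844 normalized counts against 4089, 3056 and 3622, a log2 fold change of 0.55 (SE 0.18, adjusted p = 0.41 with limma) with no overlap. Ddit4, an inhibitor of mTORC1, stood at 678, 976 and 902 against 558, 591 and 523, a log2 fold change of -0.60 (SE 0.18, adjusted p = 0.391 with limma), and Tsc2, another inhibitor, had 0.32 (SE 0.15). The 37 initiation factors had a median of 0.06, with 25 higher, and 0 were under an unadjusted p of 0.05. Of these, Eif2b4 of the exchange factor eIF2B had a log2 fold change of 0.39 (SE 0.18), and the eIF2 subunits Eif2s2 and Eif2s1 had -0.32 (SE 0.16) and -0.36 (SE 0.20). The 21 genes of the 5S particle and ribosome quality control had a median of 0.12, with 17 higher, and 0 were under an unadjusted p of 0.05. The ubiquitin ligase Huwe1 had a log2 fold change of 0.35 (SE 0.16) with no overlap.

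**Figure D5:**
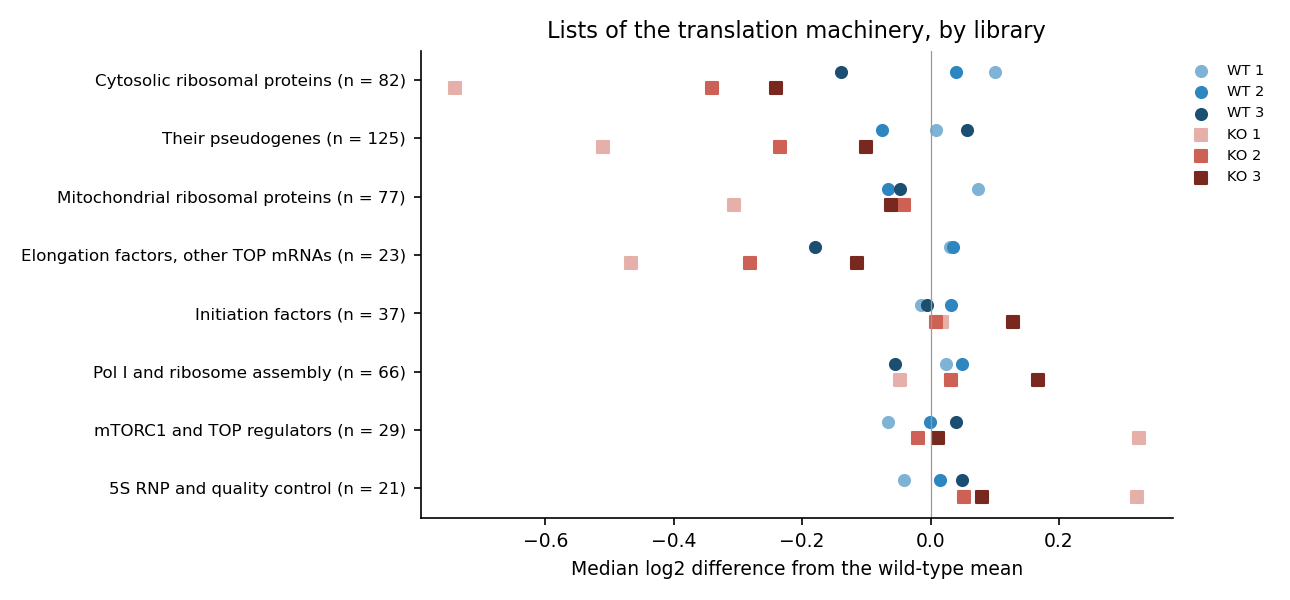
Median log2 difference from the wild-type mean (x axis) of each list of the translation machinery (y axis, with the number of genes tested), by library; circles are wild-type libraries and squares libraries labelled knockout. The labelled-knockout libraries lie below all wild-type libraries for the cytosolic ribosomal proteins and their pseudogenes, and above them for the 5S RNP and quality control list, where KO 2 at 0.052 and WT 3 at 0.049 nearly meet; the groups overlap for the other lists.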

How the data were processed

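The deposited files hold, as the authors made them, a signal per gene and library, namely counts scaled by a size factor: in every library 100% of the values were multiples of what 1 read is worth, within 0.001 reads. Size factors ran from 0.879 to 1.196. The build was mm10, per the submitters' processing notes. Not given in the sources used here are the aligner, the counter, strand use, annotation release and kit. Groups came from the genotype labels and replicate numbers from the titles.

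From these values limma 3.58.1 (trend and robust options, no covariates, all 6 libraries) was run on log2(normalized count + 1) for the 21721 genes with a mean of at least 1. Benjamini-Hochberg adjustment over all of them had a threshold of 0.05. This scale understates the change of low genes. Whole reads were recovered for edgeR 4.0.16 (quasi-likelihood, 15915 genes) and DESeq2 1.42.0 (16222 genes with an adjusted p), in R 4.3.3. The limma script was tested on simulated data. An exact permutation test of 3 against 3 cannot go below 0.1. Coding lengths and copies came from GENCODE M21 (blastn 2.17.0, at least 60 aligned bases), promoters from RefSeq.

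The members and lists were chosen with earlier results of these data known. Genes were named by a rule: fixed members by role and every paralog pair, then members with no overlap between groups by smallest p (up to 10 per direction), the 3 highest and 3 lowest per length, and up to 3 genes of smallest p from each related list; others are said to be named after their values were seen, as are Rpl13a, Rps12, Rps28, Rps29 and Rpl38 (called by DESeq2), Rps10, Rpl4, Fau, Eef2 and Eef1a1. A gene that the rule names is not reported here.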

Additional observations from a re-analysis of the deposited data

How the results depend on the processing

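The members' median log2 fold change stayed negative in every alternative run, from -0.55 with CPM scaling to -0.27 with the trend on coding length removed. The difference of the read shares was -1.12 percentage points and -0.80 to -1.34 without 1 library. Members called numbered 0 with limma and 6 with DESeq2, 0 to 1 without 1 library (Rpl21 without KO 3) and 1 (Rps28) without both WT 3 and KO 1. The 42 members lower at an unadjusted p under 0.05 became 13 to 48 without 1 library (13 without WT 1, 15 without WT 2, 20 without KO 1 and 27 without KO 2) and 20 with the length trend removed. Over all genes, the 1 call became 5 with a pseudocount of 5, 5 with no filter, 4 with TMM scaling, 4 with CPM scaling, 316 with DESeq2, 1 to 6 without 1 library and 3 without both. Replicate numbers did not pair the libraries: same-numbered deviations correlated at 0.067, -0.148 and 0.122. The fit with a replicate block called 16 genes and 0 members, with 34 members lower at an unadjusted p under 0.05, against 6.08% of all genes.

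Directions reversed for Rps10 (-0.24 to 0.12 over the fits without 1 library, with 0.12 without KO 1, 0.089 without both WT 3 and KO 1, 0.053 with the length trend removed), Rpl13a (0.016 without KO 1), Rps27a (0.056 without both WT 3 and KO 1), Rpl3l (-0.40 to 0.16 likewise, with 0.16 without WT 3, 0.036 without KO 2, 0.0011 without both), Rpl7l1 (-0.13 to 0.0044 likewise, with 0.0044 without KO 1, 0.035 without both) and Rpl22l1 (-0.099 to 0.083 likewise, with 0.030 without WT 3, 0.083 without KO 2, 0.019 without both, 0.22 with the length trend removed), and the cause was not tested. Without both WT 3 and KO 1, Rps7, named after its values were seen, reversed too. It stood at 6425 and 6742 normalized counts in WT 1 and WT 2 against 6633 and 6703 in KO 2 and KO 3. The depth limits the members little, since the 76 members with a mean of at least 1000 rest on many reads. Spread between 3 libraries limits the tests.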
